A study of Arabidopsis thaliana with 16 samples.

Results

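The transcription factor genes STZ, WRKY22, WRKY53 and WRKY6 were followed in Arabidopsis thaliana roots under normoxia and hypoxia. They were found by symbol among the probe sets paired with exactly 1 gene. Each was matched by 1 probe set, giving 4 genes of 13355 so named and 4 probe sets of 22746 tested. The probe sets are 261648_at for STZ (AT1G27730), 255568_at for WRKY22 (AT4G01250), 254231_at for WRKY53 (AT4G23810) and 264746_at for WRKY6 (AT1G62300).

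STZ, also named ZAT10, encodes a zinc finger protein of the C2H2 type that mostly represses transcription and is known to be induced by salt, cold, drought and wounding. WRKY factors bind the W-box, a short promoter element common in defence genes, and their own genes often respond quickly to stress. WRKY22 acts below a mitogen-activated protein kinase cascade in the response to bacterial flagellin, and has been linked to immunity after submergence. WRKY53 is known as a regulator of leaf senescence that responds to hydrogen peroxide. WRKY6 takes part in senescence and defence, and represses the phosphate exporter gene PHO1.

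RNA came from roots of 14-d-old seedlings of the Columbia ecotype, hybridised to 16 one-colour Affymetrix arrays, 1 per sample. The 4 groups of 4 arrays were wild type in normoxia, wild type after 6 h of hypoxia, HRE1-RNAi in normoxia and HRE1-RNAi after 6 h of hypoxia. Hypoxia was given at 3% oxygen in the dark, with roots dipped in medium with sucrose on a floating platform, after 1 h in the dark on wet filter paper. The labels describe this handling for the hypoxia treatment and do not describe that of normoxia seedlings, so low oxygen, darkness and transfer cannot be told apart here. HRE1-RNAi is a knock-down line for HRE1 (AtERF73), an ethylene response factor gene of the hypoxia response. Its sample titles read HRE1-RNAi20, but the descriptions of most of these samples read RNAi21, RNAi22, RNAi23 or RNAi24, and whether 1 line or several were used was not resolved. The promoter that drives the RNAi construct is not given in the sources used here. No probe set was paired with HRE1, so the knock-down itself was not analysed here. The labels call the arrays biological replicates without naming separate plants or plates, so the p-values reflect only how these arrays vary, which may be technical.

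Values are MAS5 intensities on a linear scale, and the number of arrays limits their precision. Changes are differences of log2(intensity + 16), with their standard error (SE), n = 4 arrays per group, and an adjusted p over all 22746 probe sets. A probe set counted as called at an adjusted p below 0.05. The array medians lay between 166 and 207. Both HRE1-RNAi arrays numbered 4 correlated least with the other arrays of their group, at a mean r of 0.9616 in normoxia and 0.9612 in hypoxia, against 0.9639 to 0.9731 for the other 14. They also had the highest difference between 3' and 5' control probe sets, 1.32 and 1.35 log2, against 0.93 to 1.20 elsewhere, a measure of RNA integrity and labelling. The changes of the 4 factors that use them, and the correlations of their deviations, are therefore also given without them. A hypoxia check list of 14 genes was written with earlier results of these data known, so it is no independent check of the treatment. Of these genes 4 were paired with a single-gene probe set, called measured below, and all 4 rose in both lines. PDC2, for instance, which encodes a pyruvate decarboxylase that acts in fermentation to ethanol, rose by 2.19 ± 0.24 log2 in wild type and by 2.01 ± 0.24 in HRE1-RNAi. The other 3 were AT4G17260 (2.69 and 2.63), AT3G03270 (3.29 and 2.85) and AT3G10040 (3.5 and 3.33).

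The comparison of hypoxia with normoxia asks how these stress factors differ in the root after the hypoxia treatment as given. All 4 genes rose in both lines, STZ and WRKY22 by several-fold, WRKY53 by less and WRKY6 least. In each line the 4 hypoxia arrays lay above all 4 normoxia arrays for each of the 4 genes. The 4 genes were chosen with earlier results of these data known, so the shares of all probe sets here only give scale. Of all probe sets, 7.2% were called higher in wild type and 7.51% in HRE1-RNAi, while 10.6% and 10.7% were called lower. Hypoxia arrays lay wholly above normoxia arrays in 9.07% and 7.93%. Among the 4 genes, 2 were called with at least a 2-fold rise in wild type and 3 in HRE1-RNAi, where 3.58% and 3.86% of all probe sets were. WRKY53 in wild type fell just short at 0.99 log2, and exceeded 1 with a pseudocount of 1 (1.18), quantile normalization (1.11) or median centring (1.08). The median change of the 4 genes was 1.79 in wild type and 2.1 in HRE1-RNAi, beside -0.06 over all probe sets in each line. With whole roots, a change of transcript per cell and a change in the share of cells of one type cannot be told apart.

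**Figure D1:**
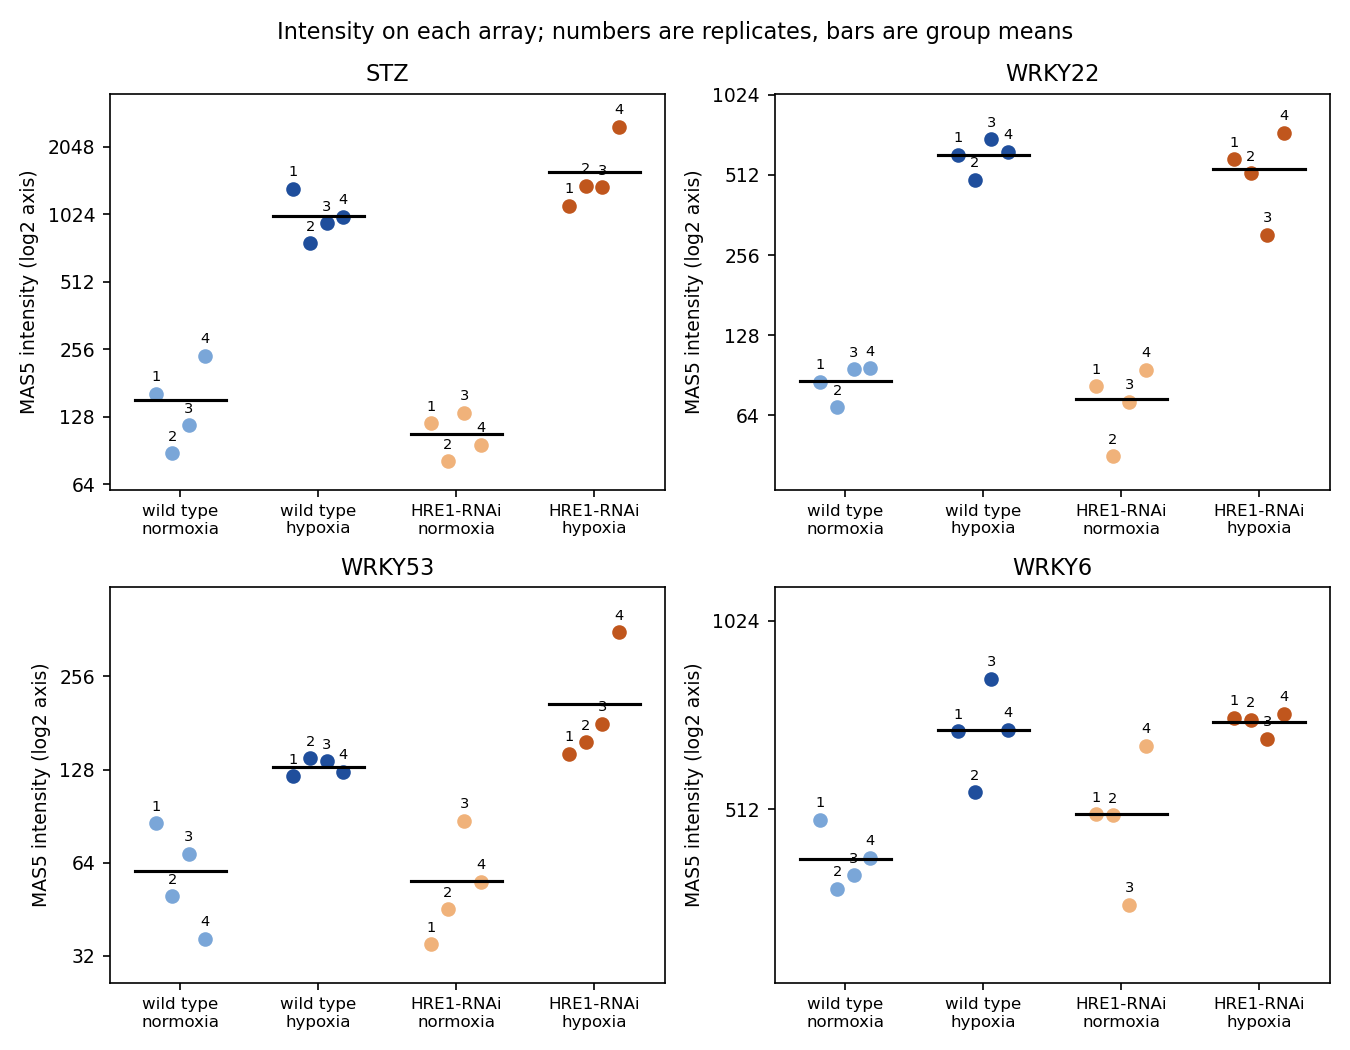
MAS5 intensity (log2 axis) of each gene on each of the 16 arrays by group, with the replicate number beside each point and a bar at the group mean. All hypoxia points lie above the normoxia points of their line, and HRE1-RNAi hypoxia array 4 is the highest array for STZ (2515.6), WRKY22 (735.8) and WRKY53 (355.3).

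STZ and WRKY22 had the largest changes of the 4, in an order that depends on the scale in wild type: 2.66 against 2.60 log2, but 6.64-fold against 7.0-fold as ratios of means. The intensity of STZ in wild type normoxia was 162.1, 88.2, 117.3 and 239.6 on arrays 1 to 4. In wild type hypoxia it was 1333.2, 762.1, 936.5 and 999.3. The lowest hypoxia array was thus far above the highest normoxia array. Its mean went from 152 ± 66.0 to 1008 ± 239 (SD, n = 4), a 6.64-fold ratio, and it rose by 2.66 ± 0.26 log2 (95% interval 2.13 to 3.19, adjusted p = 6.4e-08). By size this was rise 116 of all 22746 probe sets.

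In HRE1-RNAi, STZ read 119.7, 80.9, 133.2 and 96.0 in normoxia and 1119.6, 1369.6, 1350.7 and 2515.6 in hypoxia. Array 4 was the highest hypoxia array, well above the other 3. The mean went from 107 ± 23.4 to 1589 ± 628, a 14.8-fold ratio, and STZ rose by 3.65 ± 0.26 log2 (3.12 to 4.18, adjusted p = 4.5e-10), rise 68 by size. Without both arrays numbered 4 it rose by 3.37 ± 0.25 (adjusted p = 4.0e-10), with hypoxia at 1280.0 ± 139. Each hypoxia array stood between 3.22 and 4.38 log2 above the normoxia mean of its line, against 2.29 to 3.09 in wild type. Values of a line share the same normoxia mean, so they leave out the spread in normoxia. The hypoxia intensities themselves overlapped between the lines, with 1119.6 the lowest in HRE1-RNAi and 1333.2 the highest in wild type.

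WRKY22 changed about as much in one line as in the other. Wild type normoxia arrays read 85.7, 68.8, 95.4 and 96.4, and wild type hypoxia arrays 609.7, 490.0, 697.0 and 626.2. These groups are tight, with an SD of 14.8% of the mean in normoxia and 14.2% in hypoxia. Mean intensity went from 86.6 ± 12.8 to 606 ± 85.9, a 7.0-fold ratio, and WRKY22 rose by 2.60 ± 0.22 log2 (2.13 to 3.06, adjusted p = 9.0e-09), rise 122 by size.

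In HRE1-RNAi, WRKY22 read 82.4, 45.0, 72.1 and 94.9 in normoxia and 587.0, 520.4, 305.2 and 735.8 in hypoxia. Hypoxia array 3 was the lowest and array 4 the highest, a 2.41-fold spread within the group. The mean went from 73.6 ± 21.2 to 537 ± 179, and the rise was 2.59 ± 0.22 log2 (2.13 to 3.06, adjusted p = 7.7e-09). Leaving out both arrays numbered 4 gave 2.54 ± 0.23.

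WRKY53 was the dimmest of the 4 probe sets, below the median of its array on 14 of the 16 arrays. On wild type normoxia arrays it read 85.9, 49.8, 68.4 and 36.3, and on wild type hypoxia arrays 121.6, 139.2, 136.1 and 126.1. The hypoxia arrays were close together, with an SD of 6.33% of the mean, while normoxia arrays spread over 2.37-fold. Mean intensity went from 60.1 ± 21.7 to 131 ± 8.27, a 2.18-fold ratio, and WRKY53 rose by 0.99 ± 0.27 log2 (0.42 to 1.56, adjusted p = 0.013). The call was lost without wild type normoxia array 4, the dimmest of its group, at 0.83 log2 and adjusted p = 0.052, where leaving out any other single array gave adjusted p values from 0.0045 to 0.039.

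On HRE1-RNAi arrays WRKY53 read 34.9, 45.2, 87.4 and 55.6 in normoxia and 143.9, 157.1, 179.9 and 355.3 in hypoxia. Hypoxia array 4 again stood above the rest. The mean went from 55.8 ± 22.7 to 209 ± 98.6, and WRKY53 rose by 1.61 ± 0.27 log2 (1.04 to 2.18, adjusted p = 0.00012). Without both arrays numbered 4 the hypoxia mean was 160.3 ± 18.2 and the rise 1.36 ± 0.28 log2 (adjusted p = 0.00088).

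WRKY6 was already well expressed in normoxia, above the array median on all 16 arrays, and changed least. Wild type normoxia arrays read 492.2, 382.1, 401.1 and 428.5, and wild type hypoxia arrays 682.2, 544.8, 828.0 and 685.4. Only 52.6 intensity units separated the highest normoxia array from the lowest hypoxia array. The mean went from 426 ± 48.1 to 685 ± 116, a 1.61-fold ratio, and WRKY6 rose by 0.66 ± 0.16 log2 (0.33 to 0.98, adjusted p = 0.0042). By size 1645 probe sets rose more.

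In HRE1-RNAi, WRKY6 read 503.0, 500.4, 360.3 and 646.5 in normoxia and 717.6, 711.4, 663.8 and 727.6 in hypoxia. Normoxia array 4 came within 17.3 units of the lowest hypoxia array, and the hypoxia arrays differed among themselves by an SD of only 4.02% of the mean. Mean intensity went from 503 ± 117 to 705 ± 28.3, and WRKY6 rose by 0.50 ± 0.16 log2 (0.18 to 0.83, adjusted p = 0.027). This call was lost without HRE1-RNAi normoxia array 1, 2 or 3 or HRE1-RNAi hypoxia array 1 or 2 (adjusted p from 0.053 to 0.12). It was also lost with only the 2 groups in the fit (adjusted p = 0.065) or when the variances were moderated without trend and robust settings (adjusted p = 0.0502). Without both arrays numbered 4 the rise was 0.62 ± 0.16 (adjusted p = 0.0078).

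Some array measures moved with hypoxia. The 25S ribosomal RNA control signal was 577 to 4253 in wild type normoxia and 13791 to 18562 in wild type hypoxia. In HRE1-RNAi it was 273 to 3262 in normoxia and 14443 to 20696 on hypoxia arrays 1 to 3, but 1776 on hypoxia array 4. On that array, with its 25S signal inside the normoxia range, STZ, WRKY22 and WRKY53 were at their highest and WRKY6 at 727.6. Differences between 3' and 5' control probe sets overlapped between normoxia (0.93 to 1.32 log2) and hypoxia (0.96 to 1.35). Centring each array on its median moved all changes up by 0.09 log2 in wild type and 0.11 in HRE1-RNAi, and all 8 hypoxia calls of the 4 genes held.

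Of 10 root markers 2 were measured, the root hair expansin genes EXPA7 and EXPA18, and both fell in both lines. EXPA7 went from 463 to 165 in wild type (-1.42 ± 0.24, adjusted p = 0.00013) and EXPA18 from 723 to 273 (-1.35 ± 0.22, adjusted p = 7.3e-05). Their summed intensity was 940 to 1408 in wild type normoxia and 343 to 535 in hypoxia, and 1359 to 1540 and 328 to 914 in HRE1-RNAi. Neither was at 0 in any group. Of 8 markers of photosynthetic shoot tissue 1 was measured, LHCB4.1, at 1328 to 1721 in wild type normoxia and 698 to 838 in hypoxia, and at 1382 to 1608 and 736 to 1022 in HRE1-RNAi. It fell by 0.98 ± 0.13 and 0.86 ± 0.13 log2. The part of these shifts in the rises of the 4 factors was not tested.

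**Figure D2:**
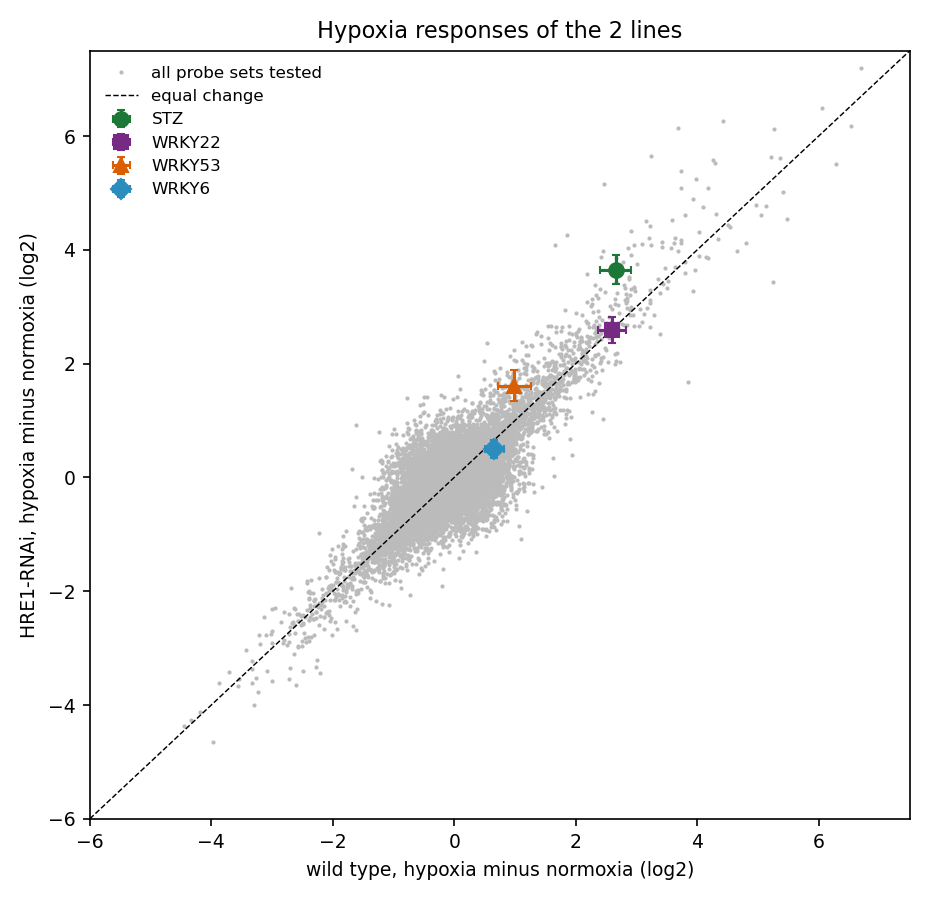
Log2 change from normoxia to hypoxia in wild type (x axis) against HRE1-RNAi (y axis) for all 22746 probe sets (grey points) and for the 4 genes (symbols with SE bars). STZ (2.66 and 3.65) and WRKY53 (0.99 and 1.61) lie above the line of equal change, WRKY22 (2.60 and 2.59) on it and WRKY6 (0.66 and 0.50) just below it.

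The next question was whether targeting HRE1 altered these factors. None of the 4 was called between the lines in either condition by limma, where 0.0264% of all probe sets were called in normoxia and 0.022% in hypoxia. At an unadjusted p below 0.05 there were 0 of 4 in normoxia and 1 of 4 in hypoxia, STZ, where 4.34% and 4.55% of all probe sets were. In normoxia STZ differed by -0.38 ± 0.26 log2 (HRE1-RNAi minus wild type, 95% interval -0.91 to 0.15) and WRKY22 by -0.22 ± 0.22 (-0.68 to 0.24). WRKY53 differed by -0.09 ± 0.27 (-0.66 to 0.48) and WRKY6 by 0.21 ± 0.16 (-0.12 to 0.53). Without both HRE1-RNAi arrays numbered 4 these were -0.34 ± 0.23 for STZ, -0.33 ± 0.21 for WRKY22, -0.11 ± 0.26 for WRKY53 and 0.08 ± 0.15 for WRKY6. The intervals over all arrays allow differences of more than 0.5 log2 for each gene.

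In hypoxia STZ differed by 0.61 ± 0.26 log2 (0.07 to 1.14, unadjusted p = 0.027, adjusted p = 0.999997), with overlapping arrays. WRKY53 was higher on each HRE1-RNAi hypoxia array (143.9 to 355.3) than on each wild type hypoxia array (121.6 to 139.2), as in 1.26% of all probe sets. Its difference of 0.53 ± 0.27 (-0.04 to 1.1, adjusted p = 0.999997) was not called. Leaving out both arrays numbered 4 brought these differences to 0.36 ± 0.23 for STZ (adjusted p = 0.69) and 0.26 ± 0.26 for WRKY53 (adjusted p = 0.82). WRKY22 differed by -0.22 ± 0.22 (-0.69 to 0.24) and WRKY6 by 0.05 ± 0.16 (-0.27 to 0.38). Without the same arrays these were -0.39 ± 0.21 (adjusted p = 0.61) and 0.04 ± 0.15 (adjusted p = 0.97), so the difference shrank for STZ and WRKY53 and grew for WRKY22.

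The difference of the hypoxia responses, HRE1-RNAi minus wild type, asks directly whether the rises were unequal. For STZ it was 0.99 ± 0.36 log2 (0.24 to 1.74, unadjusted p = 0.012, adjusted p = 0.9998), and 0.70 ± 0.33 without both arrays numbered 4 (adjusted p = 0.9997). For WRKY53 it was 0.62 ± 0.39 (-0.18 to 1.42), and 0.37 ± 0.37 without them. WRKY22 gave -0.003 ± 0.32 (-0.66 to 0.65) and WRKY6 -0.15 ± 0.22 (-0.62 to 0.31), or -0.06 ± 0.30 and -0.04 ± 0.21 without them. None was called by limma, where 0.0176% of all probe sets were. At an unadjusted p below 0.05 there was 1 of 4, STZ, beside 3.39% of all probe sets. The interval for WRKY22 leaves room for a response up to 0.66 log2 smaller or 0.65 larger in HRE1-RNAi.

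**Figure D3:**
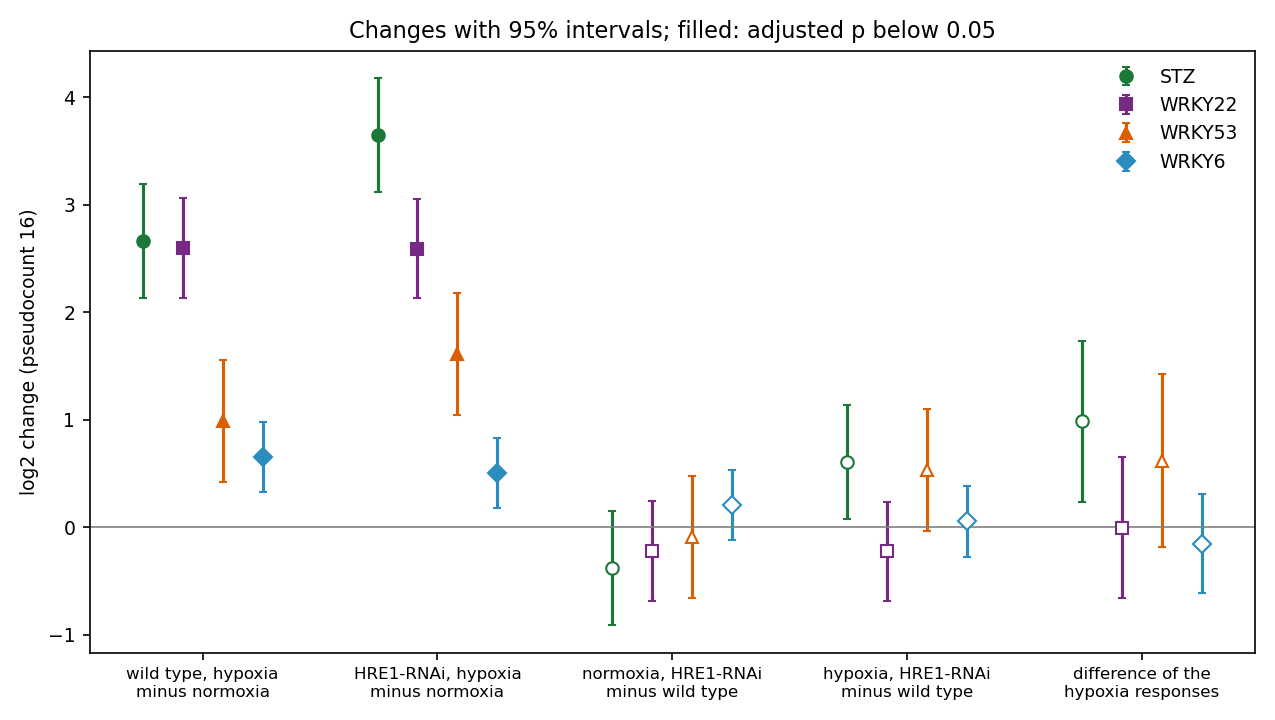
Log2 changes of the 4 genes in the 5 comparisons, with 95% intervals from the limma fit and filled symbols for an adjusted p below 0.05. All 8 hypoxia changes are filled and above 0, and the 12 values for the line differences and the difference of responses are open.

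The order of the 4 group levels was the same for STZ and WRKY53, with HRE1-RNAi normoxia lowest, then wild type normoxia, wild type hypoxia and HRE1-RNAi hypoxia. For STZ both neighbours within a condition overlapped, and only the step from normoxia to hypoxia was free of overlap, while for WRKY53 the hypoxia groups did not overlap either (139.2 against 143.9). For WRKY22 the hypoxia groups were in the other order, at 537 in HRE1-RNAi and 606 in wild type, and overlapped. WRKY6 ran from wild type normoxia (426) to HRE1-RNAi normoxia (503), wild type hypoxia (685) and HRE1-RNAi hypoxia (705), and each pair of neighbours overlapped, also the pair across lines from normoxia to hypoxia.

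Deviations of single arrays from their group means correlated weakly to moderately between the genes, over 6 pairs. Over 16 arrays r was 0.49 for STZ and WRKY22, 0.42 for WRKY22 and WRKY6, 0.32 for STZ and WRKY53, 0.25 for WRKY22 and WRKY53, 0.09 for STZ and WRKY6 and -0.12 for WRKY53 and WRKY6. Without both HRE1-RNAi arrays numbered 4 these were, in the same order, 0.37, 0.29, -0.07, -0.13, 0.16 and -0.30 over 14 arrays, so the positive values of WRKY53 turned. The values are descriptions over arrays that the genes share.

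Relatives of the 4 genes did not all move with them. Among single-gene probe sets, the other genes whose symbol is WRKY and a number were WRKY20, WRKY42 and WRKY47. A WRKY gene listed under its locus alone would be missed by this search, so the 3 do not stand for the family. Of them 0 of 3 were called in any of the 5 comparisons by limma, nor did any reach an unadjusted p below 0.05. WRKY42 and WRKY47 belong to the same subgroup as WRKY6. WRKY47 had means of 246 and 223 in wild type normoxia and hypoxia (-0.11 ± 0.21), and 230 and 232 in HRE1-RNAi (0.05 ± 0.21). WRKY20 had 353 and 375 in wild type (0.08 ± 0.14) and 358 and 331 in HRE1-RNAi (-0.11 ± 0.14). WRKY42, which acts with WRKY6 on PHO1, was near the lower end of the scale, with means from 5.38 to 14.2 and changes of 0.06 ± 0.33 in wild type and 0.14 ± 0.33 in HRE1-RNAi.

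Of 13 listed C2H2 zinc finger relatives of STZ, 4 were measured, of which 1 rose and 1 fell in each line. AT3G53600 rose from a mean of 13.5 to 97.1 in wild type (1.85 ± 0.35, adjusted p = 0.00044) and from 11.3 to 131 in HRE1-RNAi (2.39 ± 0.35, adjusted p = 1.9e-05). Both normoxia means lay below the pseudocount of 16, so the size of this rise depends on it. AT2G28200 fell from 376 to 209 in wild type (-0.83 ± 0.17, adjusted p = 0.0012) and from 417 to 266 in HRE1-RNAi (-0.61 ± 0.17, adjusted p = 0.014). AT3G60580 (-0.18 ± 0.47 and 0.27 ± 0.47) and AT2G45120 (-0.63 ± 0.36 and -0.01 ± 0.36) were not called, both with means below 50. The median of the 4 was -0.40 in wild type and 0.13 in HRE1-RNAi.

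Few genes of the surrounding signalling pathway were paired with a probe set. Of 8 immune receptors and oxidases 2 were measured. BIK1, a receptor-like cytoplasmic kinase of pattern-triggered immunity, rose from 695 to 1566 in wild type (1.15 ± 0.12, adjusted p = 2.7e-07) and from 650.0 to 1483 in HRE1-RNAi (1.17 ± 0.12, adjusted p = 1.9e-07). EFR, the receptor for bacterial elongation factor Tu, was dim, with means of 17.1 to 31.4, and was not called. SAG101, a partner of the immune regulator EDS1, was the 1 measured of 10 WRKY and pattern-response genes, and was not called (0.56 ± 0.23 and 0.42 ± 0.23).

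Of 9 calcium and touch genes 2 were measured, both encoding calmodulin-like proteins. CML38 rose from 142 to 6143 in wild type (5.26 ± 0.23) and from 69.6 to 5573 in HRE1-RNAi (6.12 ± 0.23). CML37 was not called in wild type, at 31.0 and 59.0 (0.68 ± 0.39), and rose in HRE1-RNAi from 15.9 to 106 (1.72 ± 0.39, adjusted p = 0.0027). Its hypoxia array 4 read 242.2 and the next 73.8, and without both arrays numbered 4 the rise was 1.37 ± 0.39 (adjusted p = 0.013). The HRE1-RNAi normoxia mean of CML37 lay below the pseudocount of 16, so the size of this rise depends on it. The difference of the CML37 responses, HRE1-RNAi minus wild type, was 1.04 ± 0.56 log2 and was not called by limma (adjusted p = 0.9998). For CML38 it was 0.86 ± 0.32 and was not called either (adjusted p = 0.9998). At an unadjusted p below 0.05 in limma there was 1 of these 2 genes, beside 3.39% of all probe sets. AT2G21640, the 1 measured of 8 reactive oxygen genes, rose by 1.05 ± 0.29 and 1.17 ± 0.29. Lists of the mitogen-activated protein kinase cascade (10 genes), general stress regulators (17) and jasmonate and wound genes (10) had 0 members paired with a probe set and were not analysed here. Without both HRE1-RNAi arrays numbered 4, the 13 listed genes and markers called in the HRE1-RNAi hypoxia comparison, of 20 measured, were all called in the same direction and no other was.

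Genes with patterns most like each factor were sought among 8047 other single-gene probe sets with a mean of at least 100 in at least 1 group, by Pearson's r of the log2 values over the 16 arrays. This search was not repeated without the HRE1-RNAi arrays numbered 4. For STZ the highest were AT3G03670 (r = 0.987), AT5G43520 (0.983) and AT5G59680 (0.980). Like STZ, each of these read highest in its group on HRE1-RNAi hypoxia array 4. Their deviations from group means correlated less with those of STZ, at 0.73, 0.84 and 0.63 in the order named. AT5G43520 rose by 3.69 ± 0.19 log2 in wild type and 3.98 ± 0.19 in HRE1-RNAi. WRKY22 was number 68 in the order of likeness to STZ (r = 0.955), WRKY53 number 328 (0.886) and WRKY6 number 650 (0.784). All these values share the arrays and the contrast of hypoxia with normoxia, and 278 of the probe sets had an r of at least 0.9 with STZ.

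For WRKY22 the most alike were AT2G44370 (r = 0.983), AT1G15430 (0.982) and AT1G52200 (0.982), with 319 at 0.9 or more. They differed in size of response, with 0.68 ± 0.12 log2 for AT1G15430 and 4.03 ± 0.23 for AT2G44370 in wild type. Likeness here is thus of shape and not of size. Deviations from group means correlated less with those of WRKY22, at 0.66, 0.69 and 0.67 in the order named. WRKY53 had fewer close matches, 31 at 0.9 or more, led by DLAH (r = 0.946), which encodes an acylhydrolase like DAD1, AT1G53620 (0.940) and AT2G18690 (0.939). Like WRKY53, each of these read highest in its group on HRE1-RNAi hypoxia array 4. DLAH read 708.2 there and 332.2 on the next array, AT1G53620 344.0 and 204.2, and AT2G18690 3722.1 and 2067.4. The part of that array in these likenesses was not tested. Their deviations from group means correlated with those of WRKY53 at 0.86, 0.70 and 0.69. DLAH had means of 113 and 240.4 in wild type and 141 and 404 in HRE1-RNAi. For WRKY6 there were 23, led by AT3G47980 (0.937), AT2G28755 (0.935) and AT2G35910 (0.923). For deviations from group means these were 0.86, 0.84 and 0.79. AT3G47980 rose by 1.4 ± 0.18 in wild type and 1.1 ± 0.18 in HRE1-RNAi.

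**Figure D4:**
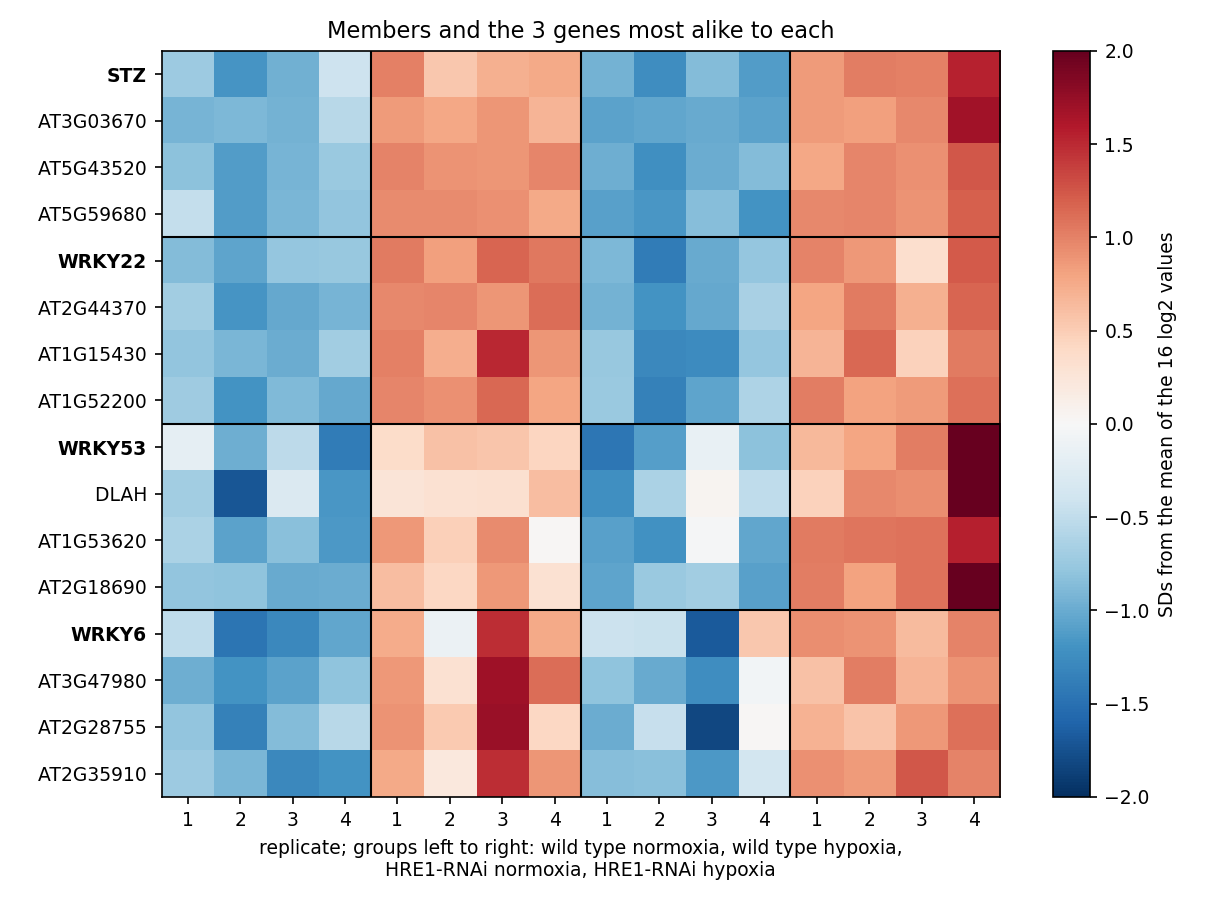
Log2 values of the 4 factors (bold) and of the 3 genes most alike to each, on the 16 arrays, as SDs from the gene's mean (red above, blue below). The WRKY53 block is reddest on HRE1-RNAi hypoxia array 4, where WRKY53 read 355.3, while the WRKY6 block is reddest on wild type hypoxia array 3, where WRKY6 read 828.0.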

How the data were processed

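Per the submitters' processing notes, the deposited intensity values came from MAS5, with no version given; per the file, they are linear, from 0 to 41828, with 1 value per probe set and array. After trimming 2% of probe sets at either end, every array averaged 500.04 to 500.05, which is how MAS5 scales to a target.

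Of 22810 probe sets, 64 controls were set aside. By the platform annotation, 13513 of the rest have 1 gene (13436 matched in RefSeq's gene list), 503 have more and 8730 are unnamed here. With limma 3.58.1 in R 4.3.3, log2(intensity + 16) was fitted with a mean per group, using all 16 arrays and eBayes with trend and robust set, for 5 contrasts. Tests were two-sided, with Benjamini-Hochberg adjustment over 22746 probe sets within each contrast. The fit was tested on simulated data.

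The members and gene lists were chosen with earlier results of these data known. Named are the 4 members, up to 4 called genes per list and contrast, every member of lists with at most 5 measured genes, and the 3 genes most alike to each member; for a gene with several probe sets the brightest stood. Values of list genes are given for the hypoxia comparisons only, apart from the difference of responses of CML37 and CML38. Replicate numbers were not used to pair arrays in the main fit, since the labels do not say that they mark a shared batch. Same-numbered arrays of different groups had deviations correlating above 0.1 in 6 of 24 pairs, with a median r of 0.03 against -0.01 for different numbers. The HRE1-RNAi arrays numbered 4 in normoxia and hypoxia did share deviations, at r = 0.42, against at most 0.20 for different numbers. Alternatives were pseudocounts of 1 and 64, quantile normalization, median centring, leaving out the dimmest 40%, the replicate number as a block, only the groups compared, plain moderation, array weights, stricter calls, and leaving out single arrays or both HRE1-RNAi arrays numbered 4.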

Additional observations from a re-analysis of the deposited data

Results flagged for a closer look

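Within groups of 4 arrays, the distance of the most extreme array from its nearest neighbour was set against the range of the group (Dixon's test at the 95% level), for the 4 factors and the other named genes. Of 144 groups of 36 genes, 9 had an extreme array, where chance flags about 1 in 20. Of the 16 groups of the 4 factors 1 did, WRKY53 in HRE1-RNAi hypoxia, with array 4 at 355.3 and the next at 179.9. On the log2 scale its gap was 0.759 of the range, which is below the limit. The same array was the highest for AT2G28200 (296.8), CML37 (242.2), AT3G03670 (2673.1) and AT1G53620 (344.0), the last pair having been chosen for likeness to STZ and WRKY53. Elsewhere the extreme arrays were wild type normoxia array 1 for WRKY20 (313.7), wild type normoxia array 4 for AT3G03670 (30.9), wild type hypoxia array 4 for DLAH (275.5) and HRE1-RNAi normoxia array 3 for AT1G53620 (54.3).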

How the results depend on the processing

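Several alternatives cannot move a change and alter only its standard error or adjusted p. These are leaving out an array of a group not compared, either replicate block, and leaving out the dimmest probe sets. Fitting only the groups compared and plain moderation are also of this kind. Over the alternatives run, these included, all 214 values of the 4 factors in the hypoxia comparisons stayed above 0, and 206 stayed called. The exceptions were WRKY53 in wild type without 1 array (range 0.83 to 1.15) and WRKY6 in HRE1-RNAi without 1 array (0.36 to 0.63), with only the groups compared and with plain moderation (0.50 for both). WRKY53 has no value without the dimmest 40% of probe sets, as it was itself among those left out. Requiring at least a 2-fold change left 2 of 4 called in wild type. None of the 317 values between the lines or for the difference of responses was called. Those near 0 changed sign: WRKY53 in normoxia with quantile normalization (0.019) or without 1 array (-0.28 to 0.065), and, without 1 array, WRKY22 (-0.39 to 0.017) and WRKY6 (-0.048 to 0.15) in hypoxia. The difference of responses of WRKY22 did so with a pseudocount of 1 (0.039), median centring (0.019) and without 1 array (-0.18 to 0.24). The cause was not tested. The replicate block, fixed, cannot move a change, because every group holds the same replicate numbers, so it tests only the standard errors. With it no call of the 4 factors changed, and 1779 probe sets were called higher in wild type hypoxia against 1637. The pseudocount altered the size of the rises. With 64 in place of 1, the rise in wild type went from 1.18 to 0.67 for WRKY53 and from 2.79 to 2.15 for WRKY22. For STZ it went from 2.79 to 2.34 and for WRKY6 from 0.68 to 0.60. In HRE1-RNAi it went from 1.87 to 1.15 for WRKY53, from 2.83 to 2.09 for WRKY22 and from 3.83 to 3.21 for STZ. Without both HRE1-RNAi arrays numbered 4, AT2G28200 fell by 0.63 in HRE1-RNAi. Dim probe sets had larger standard errors, 0.33 for WRKY42 against 0.14 for WRKY20.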
